A study of Mus musculus with 32 samples.

Results

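Broad H3K4me3 domains are stretches of chromatin in which trimethylation of lysine 4 on histone H3 extends over several kilobases instead of forming a narrow mark at a gene start. In wild-type J1 mouse embryonic stem (ES) cells, 1454 of the 31027 H3K4me3 peaks on chromosomes 1 to 19 were at least 3000 bp wide, counted as end minus start plus 1. These 1454 peaks, 4.69% of the list (exact 95% interval 4.45 to 4.93), are the domains described here. They were chosen by their own wild-type width, so their width, fold enrichment and other values in the wild-type H3K4me3 list are given as description and carry no test. The choice rests on 1 library, and the list was called with broad linking, which joins neighbouring enriched stretches into 1 peak.

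The study compared wild-type cells with a Taf5l knockout (Taf5l-KO) and a Taf6l knockout (Taf6l-KO) of the same J1 ES line by chromatin immunoprecipitation and sequencing (ChIP-seq). In each genotype there was 1 library for each of 7 targets. These were the histone marks H3K4me3 and H3K9ac, the transcription factors Myc and Oct4, total RNA polymerase II (RNAP), and polymerase phosphorylated on serine 5 (RNAP-ser5) or serine 2 (RNAP-ser2) of its C-terminal repeats. A further 5 libraries came from streptavidin pull-downs of Flag-biotin tagged proteins, with 2 lines each of TAF5L-FB and TAF6L-FB and a control carrying the biotin ligase BirA. The remaining 6 of the 32 samples were inputs. The labels do not say how many clones the knockouts represent, and whether the 3 genotypes were grown and processed side by side is not given in the sources used here.

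H3K4me3 is laid down by COMPASS and MLL type methyltransferases at the starts of active genes, and the widest domains of a cell type are known for lying at genes that are important to that cell type. TAF5L and TAF6L are subunits of SAGA, a coactivator complex whose acetyltransferase module modifies histone H3, including lysine 9, and which works with RNA polymerase II at gene starts. Myc is a transcription factor that binds open promoters with H3K4me3, and Oct4 is a pluripotency factor that binds largely at enhancers. H3K9ac marks active promoters, serine 5 phosphorylation marks polymerase near the start of transcription, and serine 2 phosphorylation marks elongating polymerase.

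All values below come from peak lists, 1 per library, so a domain either overlapped a peak of another list by at least 1 bp or did not. A domain without a peak may still carry signal under the calling threshold. Intervals are exact Clopper-Pearson 95% intervals and cover counting error over regions only. With 1 library per target and genotype there is no replicate error for any genotype difference, the genotypes were not tested against each other and no p-value appears. Both knockouts were compared with the same wild-type lists, so their differences from wild type share that side. The H3K4me3 libraries held 15136528 unique tags in wild type, 8886529 in Taf5l-KO and 13041135 in Taf6l-KO. The peak caller scaled each of them down to its input, which held 7771755, 6245652 and 5923469 unique tags.

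The domains were moderately wider than the limit in most cases, with a long tail. Their median width was 3664 bp, with quartiles of 3259 and 4454 bp and a maximum of 14643 bp, against a median of 794 bp over the whole list. There were 233 domains of at least 5000 bp, 52 of at least 7000 bp and 13 of at least 10000 bp. Together they covered 5.97 Mb, 17.5% of the 34 Mb under wild-type H3K4me3 peaks. The 3 domains nearest the limit from inside were 3000, 3001 and 3001 bp wide, and the 3 peaks nearest it from outside were 2999, 2998 and 2998 bp wide. The limit therefore divides a continuous range of widths. The peak at chr15:98635691-98638689, 1 bp too narrow to be a domain, had a fold enrichment of 4.57 and matched knockout peaks of 612 and 609 bp.

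Width and height were related but not the same property. The median fold enrichment of the domains, the authors' ratio of pileup to local background for each peak, was 9.46, against 5.38 for the narrower peaks. Of the domains, 427 (29.4%) had a fold enrichment of 10.6 or above, the limit of the top 10% of the list. The others were wide without reaching it, and the domain with the greatest width had a fold enrichment of 6.68. A pair of reference sets of narrower peaks is used below. One holds the 2676 narrower peaks in the same top 10% (strong narrower peaks), and the other the 11343 narrower peaks of at least 1000 bp.

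Domains were unevenly placed along the genome. Their share of the H3K4me3 peaks ran from 3.05% on chromosome 18 (29 domains) to 7.14% on chromosome 11 (169 domains). They also had close neighbours. The median gap from a domain to the nearest other H3K4me3 peak was 6087 bp, against 16484 bp for a narrower peak, and 14.9% of domains had another peak within 1000 bp, against 5.95% of narrower peaks. Domains seldom adjoined each other. The median gap to the nearest other domain was 201593 bp, and 101 domains had one within 10000 bp.

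**Figure D1:**
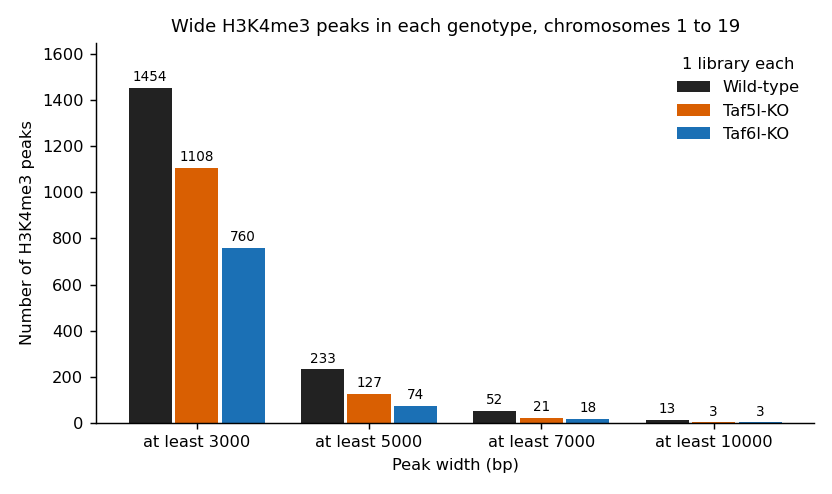
Number of H3K4me3 peaks (vertical axis, linear) at or above 4 width limits in bp (horizontal axis) in the 3 genotypes, 1 library each, on chromosomes 1 to 19. The bars are highest in wild type at every limit: 1454, 1108 and 760 peaks reached 3000 bp, and 233, 127 and 74 reached 5000 bp.

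The knockout lists held fewer wide H3K4me3 peaks. This count does not depend on which domains were chosen in wild type. Taf5l-KO had 1108 peaks of at least 3000 bp, 0.762 times the wild-type number, and Taf6l-KO had 760, 0.523 times. The lists as a whole were closer in size, at 0.989 and 0.905 times the wild-type number of peaks, and the median width of all peaks was 794 bp in wild type and 792 bp in each knockout. At 5000 bp and above the ratios were 0.545 and 0.318, and at 7000 bp and above they were 0.404 and 0.346. The unique tags of the H3K4me3 libraries were 0.587 and 0.862 times the wild-type number, and those of the inputs to which they were scaled 0.804 and 0.762 times. The part of depth in the count of wide peaks was not tested.

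Nearly every domain still had an H3K4me3 peak in the knockouts. In Taf5l-KO, 1450 of the 1454 domains (99.7%) overlapped a peak, against 84.2% of all wild-type peaks, and in Taf6l-KO 1445 did (99.4%), against 80.3%. The 4 domains without a peak in Taf5l-KO were among the 9 without one in Taf6l-KO. All 2676 strong narrower peaks overlapped a peak in each knockout. The Taf5l-KO peaks covered 81.3% of the bases in the domains and the Taf6l-KO peaks 74.3%. This was below the strong narrower peaks (90.5% and 86.3%) and close to all peaks (80.3% and 74.5%).

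The width of the widest knockout peak overlapping each domain was compared with the domain's wild-type width. In Taf5l-KO the median of this ratio was 0.871 (quartiles 0.709 and 0.986) and the median width 3230 bp. The Taf5l-KO peak was narrower at 1133 domains (78.1%), against 50.2% of all overlapped wild-type peaks. In Taf6l-KO the median ratio was 0.779 (quartiles 0.617 and 0.91) and the median width 2921 bp, and the peak was narrower at 1280 domains (88.6%), against 62.3%. Width still reached 3000 bp at 877 domains (60.3%) in Taf5l-KO and 666 (45.8%) in Taf6l-KO, beside 3.85% and 2.59% of all wild-type peaks. Less than 50% of the width was left at 113 domains (7.79%) in Taf5l-KO and 178 (12.3%) in Taf6l-KO, against 5.13% and 6.93%. Since width chose the domains in wild type, these shares describe them and the background shares are printed for scale.

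**Figure D2:**
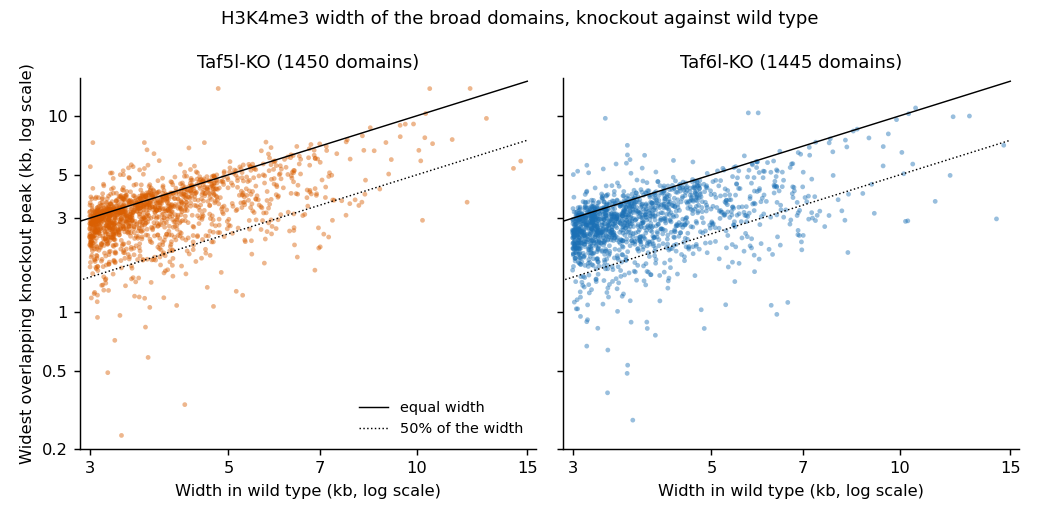
Width of the widest overlapping knockout H3K4me3 peak against the wild-type width of each domain, both in kb on log axes, with 1 point per domain, for Taf5l-KO (left, 1450 domains) and Taf6l-KO (right, 1445 domains). Most points lie under the solid line of equal width, 1133 in Taf5l-KO and 1280 in Taf6l-KO, and 113 and 178 lie under the dotted line at 50% of the width.

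Because the domains were chosen by their wild-type width, the comparison was also made the other way round. For peaks of at least 3000 bp chosen by width in Taf5l-KO, the median ratio of knockout to wild-type width was 0.998, with the knockout peak narrower at 561 and wider at 547 of 1108. For those chosen in Taf6l-KO it was 0.933, with the knockout peak narrower at 503 and wider at 256 of the 759 that had a wild-type peak, out of 760. The median for Taf6l-KO was thus below 1 whichever list chose the peaks, and that for Taf5l-KO was close to 1 when the knockout chose them. Of the Taf5l-KO wide peaks, 876 (79.1%) were also at least 3000 bp in wild type, as were 667 (87.8%) of those of Taf6l-KO.

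The ratio was lower for wider domains. In Taf5l-KO its median was 0.908 for the 3000 to 4000 bp class, 0.846 for 4000 to 5000 bp, 0.749 for 5000 to 7000 bp and 0.666 for 7000 bp and above. In Taf6l-KO the corresponding medians were 0.811, 0.757, 0.618 and 0.535. The same slope ran through the narrower peaks, down from 1.18 and 1.07 for peaks under 500 bp. When peaks were classed by knockout width instead, the Taf5l-KO medians from 3000 bp upward lay between 0.966 and 1. Those of Taf6l-KO lay between 0.924 and 0.988. For peaks under 500 bp in the knockout they were 0.884 and 0.841. The downward slope was present when wild-type width formed the classes. With knockout width the Taf6l-KO medians instead ascended from the 3000 to 4000 bp class to the widest.

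**Figure D3:**
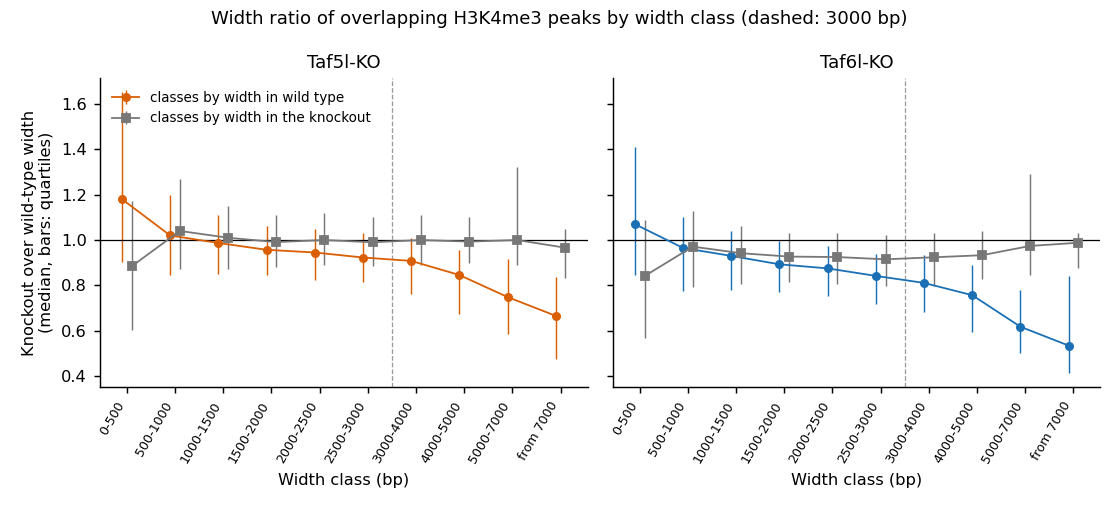
Median ratio of knockout to wild-type H3K4me3 width (vertical axis, bars from lower to upper quartile) by width class in bp (horizontal axis), with classes formed on wild-type width (coloured circles) or on knockout width (grey squares). Coloured medians descend from 1.18 to 0.666 for Taf5l-KO and 1.07 to 0.535 for Taf6l-KO, whereas the grey ones from 500 bp upward range over 0.966 to 1.04 and 0.915 to 0.988.

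The 2 knockouts could be compared with each other without wild-type values on either side of the ratio. Over the 1445 domains with a peak in both, the median ratio of Taf6l-KO to Taf5l-KO width was 0.922 (quartiles 0.807 and 1.01), and the Taf6l-KO peak was the narrower at 1035. Both kept at least 3000 bp at 594 domains and neither did at 505. Taf5l-KO alone kept it at 283 domains and Taf6l-KO alone at 72. The Taf6l-KO library had more unique H3K4me3 tags than the Taf5l-KO library and the smaller input.

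Most domains held 1 knockout peak, and the edge moved on 1 side more often than on both. A single knockout peak lay over 1257 of the 1450 domains in Taf5l-KO and over 1246 of the 1445 in Taf6l-KO. Another 174 and 188 domains held 2 peaks, and 19 and 11 held more, with at most 5. Edges were read from the widest knockout peak at each domain, so a smaller outer peak did not count as keeping an edge. This widest peak ended at least 200 bp inside the wild-type edge on 1 side at 734 domains (50.6%) in Taf5l-KO. In Taf6l-KO it did so at 785 (54.3%). Both of its sides lay that far inside at 272 (18.8%) and 412 (28.5%), and neither at 444 (30.6%) and 248 (17.2%). Knockout H3K4me3 covered the centre of 94.6% of domains in Taf5l-KO and 90.8% in Taf6l-KO, but the positions 5% of the width inside the edges in 57.9% and 46%.

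The widest domains show the range of outcomes. The domain at chr10:80597151-80611793 measured 14643 bp in wild type. In Taf5l-KO it was split into peaks of 5870, 1900 and 546 bp, and in Taf6l-KO into peaks of 7071 and 1343 bp. Beyond 11443 bp from its start, no H3K4me3 peak was listed in either knockout. It overlapped polymerase peaks in all 9 polymerase lists and no H3K9ac, Myc or Oct4 peak.

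The second widest, at chr8:28369722-28383978, measured 14257 bp in wild type, 5389 bp in the widest of 5 Taf5l-KO peaks and 2977 bp in the wider of 2 Taf6l-KO peaks. In wild type its first 4 kb carried an H3K9ac peak of 2118 bp (fold enrichment 7.19), a Myc peak of 589 bp (20.9) and an RNAP peak of 2910 bp (9.18). The Taf6l-KO H3K4me3 peak of 2977 bp lay over this same end, and no H3K9ac or Myc peak was called there in either knockout.

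Among the 10 widest, the size of the difference varied. At chr9:114461537-114474443 the widths were 12907, 9692 and 9965 bp in wild type, the Taf5l-KO and the Taf6l-KO. At chr12:87807327-87819482 they were 12156, 13772 and 9882 bp, and at chr3:6297326-6307649 they were 10324, 10260 and 10239 bp, the closest match among the 10 widest. This chromosome 3 extent was not particular to H3K4me3. RNAP-ser2 peaks there measured 10157, 10315 and 10271 bp in the same order, and the wild-type RNAP peak 10385 bp, with nearly the same borders. RNAP in Taf5l-KO was instead split, its widest peak being 2200 bp. No H3K9ac peak was listed. The cause of the shared borders was not tested. The domain at chr1:134912496-134922974 was 10479 bp wide in wild type, 13752 in Taf5l-KO and 5669 in Taf6l-KO. On chromosome 18, a domain measured 10589, 7203 and 10961 bp. The remaining 3 of the 10 were at chr6:39359390-39371412 (12023, 3622 and 4962 bp), chr1:136456651-136468031 (11381, 7561 and 3658 bp) and chr2:162880060-162890350 (10291, 7727 and 2909 bp). Of these 10 domains, 7 carried a wild-type H3K9ac peak and all carried wild-type RNAP.

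Domains with a peak in both knockouts were ordered by the mean of their 2 width ratios. The 5 lowest of these had mean ratios from 0.178 to 0.234 and wild-type fold enrichments between 4.12 and 5.18, below the median of 9.46. The lowest, at chr19:4801511-4805254, was 3744 bp wide in wild type, 1053 bp in Taf5l-KO and 280 bp in Taf6l-KO. It had polymerase peaks in all 9 lists but no H3K9ac peak. The domain at chr11:115691631-115694922 (3292, 715 and 824 bp) overlapped no other list than the H3K4me3 lists of the knockouts. The highest mean ratio, 2.05, belonged to chr9:108549553-108552936, at 3384, 4196 and 9703 bp. It was followed by chr13:23665270-23668939 (3670, 7295 and 7066 bp) and chr15:97206442-97209450 (3009, 5498 and 5011 bp). Wild-type fold enrichments of these were 11.7, 8.44 and 6.99, on both sides of the median. Among the domains without a Taf6l-KO peak, the 5 widest had wild-type fold enrichments from 3.82 to 4.39, and 2 of them, at chr11:20111941-20116407 and chr10:62058224-62061784, had no Taf5l-KO peak either.

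Polymerase was present on most domains in wild type. Total RNAP overlapped 1324 domains (91.1%, 89.5 to 92.5), against 47.9% of all wild-type H3K4me3 peaks, 66.3% of the narrower peaks of at least 1000 bp and 84.9% of the strong narrower peaks. RNAP-ser2, the elongating form, overlapped 1073 domains (73.8%, 71.5 to 76) against 33.9% of all peaks. RNAP-ser5 overlapped 861 (59.2%, 56.6 to 61.8) against 25.3%. At the strong narrower peaks the shares were 51.8% for RNAP-ser2 and 31.9% for RNAP-ser5, so the phosphorylated forms separated the domains from strong narrow peaks more than total polymerase did. The RNAP lists were called from few unique tags, 5174150, 3871824 and 6295522 for RNAP, RNAP-ser5 and RNAP-ser2 in wild type.

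H3K9ac marked 874 domains in wild type (60.1%, 57.5 to 62.6), against 12.4% of all peaks, 22.6% of the narrower peaks of at least 1000 bp and 53.9% of the strong narrower peaks. Of the 4024 wild-type H3K9ac peaks, 24.1% lay in a domain. H3K9ac covered at least 50% of the width in 5.98% of the domains. Counted over all domains, with or without an H3K9ac peak, it covered 15.9% of the bases. Over all strong narrower peaks it covered 17.3%.

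A wide region has more room for a chance overlap, so the central 1000 bp of each domain was also read on its own. RNAP overlapped this window in 67.5% of domains (background 46.5%), RNAP-ser5 in 40% (24.6%), RNAP-ser2 in 54.7% (33%) and H3K9ac in 42.8% (11.3%). Myc overlapped it in 4.13% (0.835%) and Oct4 in 1.79% (1.16%). At the centres of the strong narrower peaks RNAP reached 82.1% and H3K9ac 52.5%, above the domains, whereas RNAP-ser5 (29.7%) and RNAP-ser2 (48.7%) were below them. When strength was matched by taking the 427 domains of the top 10%, all these shares at the centre were higher than at the strong narrower peaks, at 87.1% for RNAP, 79.6% for H3K9ac, 58.5% for RNAP-ser5 and 75.9% for RNAP-ser2. The direction of the difference for RNAP and H3K9ac therefore depends on whether strength is matched.

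**Figure D4:**
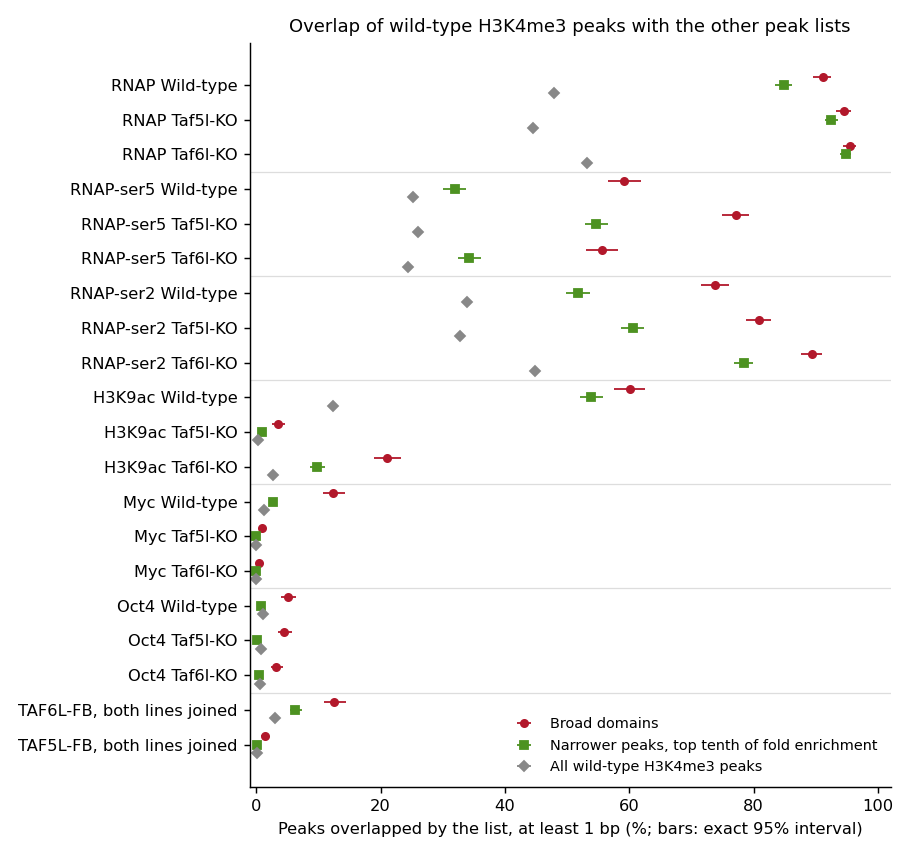
Share of wild-type H3K4me3 peaks overlapped by the polymerase, H3K9ac, Myc and Oct4 lists and the joined TAF6L-FB and TAF5L-FB regions (horizontal axis, %, at least 1 bp, bars: exact 95% interval), for the domains (red circles), the strong narrower peaks (green squares) and all peaks (grey diamonds). Domains lie above all peaks in each of these, for example at 91.1% against 47.9% for wild-type RNAP and at 60.1% against 12.4% for wild-type H3K9ac.

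Several marks often overlapped the same domain, counted over its whole width. H3K9ac, RNAP, RNAP-ser5 and RNAP-ser2 all overlapped 624 domains (42.9%, 40.4 to 45.5) in wild type, against 20.6% of the strong narrower peaks. Those peaks are shorter, with a median of 1805 bp against 3664 bp. Each of these 4 lists also overlapped a larger share of the domains on its own. Combination beyond the single shares was not tested. None of these lists overlapped 92 domains (6.33%, 5.13 to 7.7). Of the 874 domains with H3K9ac, 863 (98.7%) had RNAP, and of the 580 without it 461 (79.5%) did. A polymerase peak was present in all 9 lists over the 3 genotypes at 602 domains and in none at 24. Over the 25 other lists a domain overlapped a median of 11, with a minimum of 0 and a maximum of 18. Neither the 9-list counts nor this number of lists was computed for other peaks. They are not shown to be particular to the domains.

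The polymerase and H3K9ac lists overlapped a larger share of the wider domains. From the 3000 to 4000 bp class to the domains of at least 7000 bp, the overlapped share was 53.2% and 92.3% for RNAP-ser5, 69.3% and 98.1% for RNAP-ser2, 58.5% and 76.9% for H3K9ac, and 89.9% and all 52 for RNAP. In the central 1000 bp the H3K9ac share was lower in the widest class, 26.9% (15.6 to 41) against 48.2% (44.9 to 51.5), and that of RNAP was 59.6% (45.1 to 73) against 70.7% (67.7 to 73.7). For RNAP-ser5 the central share was higher in the widest class, 57.7% (43.2 to 71.3) against 38.5% (35.4 to 41.8). The widest class holds 52 domains, and its intervals are wide.

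Inside the domains, H3K9ac was the most central of the lists with many peaks. Wild-type H3K9ac peaks covered the centre in 25.2% of domains and the positions 5% inside the edges in 3.09%. RNAP covered 43.3% and 18.2%, RNAP-ser5 21.7% and 11.4%, and RNAP-ser2 34.9% and 18.4%. RNAP-ser2 also ran beyond the domains. At a distance of 50% of the width outside the edges it still covered 13.7% of positions, against 7.5% for RNAP and 0.206% for H3K9ac. The midpoint of 3% of the H3K9ac peaks in domains lay in the outer 10% of the width at either end, compared with 9.23% for RNAP, 12.4% for RNAP-ser5 and 10.9% for RNAP-ser2.

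**Figure D5:**
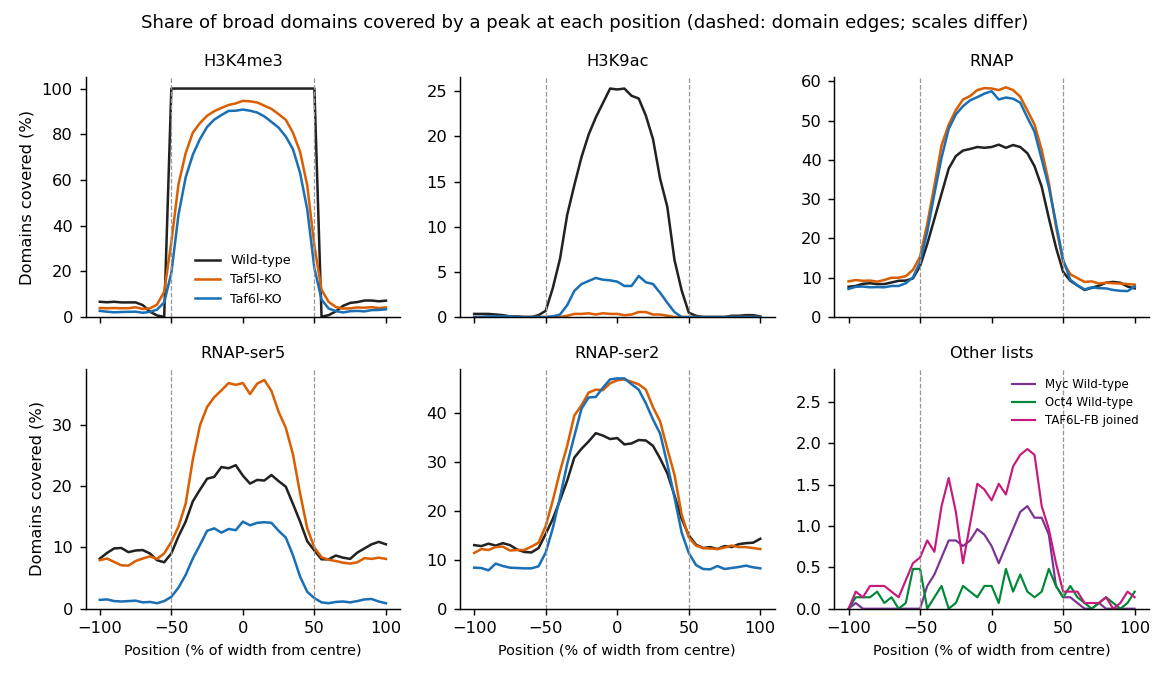
Share of the 1454 domains covered by a peak (vertical axes, %, scales differ) at each position from the centre in % of the domain's own width (horizontal axis, dashed lines at the edges), for wild type (black), Taf5l-KO (orange) and Taf6l-KO (blue), with wild-type Myc and Oct4 and the joined TAF6L-FB regions in the last panel. Wild-type H3K9ac stands at 25.2% at the centre and is close to 0 at the edges, and knockout RNAP lies above wild-type RNAP at the centre, at 58.2% and 57.5% against 43.3%.

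The end that was lost in a knockout could be compared with the end that was kept. At 251 domains in Taf5l-KO and 309 in Taf6l-KO, at least 500 bp were lost on 1 side and less than 100 bp on the other. In wild type, the last 500 bp of the lost end overlapped an H3K9ac peak in 0.398% of these domains for Taf5l-KO (0.0101 to 2.2), and the kept end in 23.5% (18.4 to 29.2). For Taf6l-KO the shares were 0.324% (0.00819 to 1.79) and 27.8% (22.9 to 33.2). Wild-type RNAP overlapped 19.5% of lost and 59% of kept ends for Taf5l-KO, and 16.2% and 62.1% for Taf6l-KO. RNAP-ser2 showed little of this contrast, at 32.7% and 33.9% for Taf5l-KO and 28.2% and 36.6% for Taf6l-KO. The lost ends thus seldom carried wild-type H3K9ac, and carried total polymerase less often than the kept ends. Over all domains, wild-type RNAP covered 18.2% and H3K9ac 3.09% of the positions 5% of the width inside the edges. That is another measure than the 500 bp window, and the share for domain ends in general was not computed. Edges were read from the widest knockout peak, so a smaller knockout peak may lie at a lost end. The lists give 1 fold enrichment per H3K4me3 peak, so the wild-type value at each end is not known.

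The H3K9ac lists overlapped far fewer domains in the knockouts. H3K9ac overlapped 60.1% of domains in wild type, 3.51% in Taf5l-KO (2.62 to 4.59; all peaks 0.345%) and 21.1% in Taf6l-KO (19 to 23.3; all peaks 2.74%). The knockout lists were short everywhere, with 110 and 880 peaks on chromosomes 1 to 19 against 4024. Unique tags were 1.32 and 1.07 times the wild-type number before scaling to the inputs. Of the 874 domains with wild-type H3K9ac, 51 (5.84%, 4.38 to 7.6) still overlapped an H3K9ac peak in Taf5l-KO. In Taf6l-KO 303 did (34.7%, 31.5 to 37.9). Strong narrower peaks with H3K9ac kept it in 1.8% (1.18 to 2.63) and 17.5% (15.6 to 19.6), lower shares than at the domains. The domains of the top 10% kept it in 6.98% and 40.8%. No domain had H3K9ac in Taf5l-KO without having it in wild type, which allows up to 0.634% of the 580 domains, and 4 did in Taf6l-KO. H3K9ac was listed in all 3 genotypes at 48 domains and in wild type but neither knockout at 568.

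The widest domains with H3K9ac in all genotypes did not share 1 course of H3K4me3 width. The second widest of them, at chr19:5796037-5804457, had widths of 8421, 8687 and 8355 bp and H3K9ac fold enrichments of 4.76, 6.21 and 5.91 in wild type, the Taf5l-KO and the Taf6l-KO. The third, at chr11:4992714-5000988, had H3K9ac fold enrichments of 8.55, 6.94 and 7.19 and H3K4me3 widths of 8275, 4692 and 3979 bp. Fold enrichments come from separately scaled libraries and are given as listed.

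Polymerase lists did not show a matching deficit. Total RNAP overlapped 94.5% of domains in Taf5l-KO and 95.5% in Taf6l-KO, beside 44.5% and 53.2% of all peaks, and the wild-type share was 91.1%. It was present in all 3 genotypes at 1285 domains and in none at 38. The 1285 were 97.1% of the domains with wild-type RNAP. This compares with 96.7% of strong narrower peaks with wild-type RNAP and 75% of all peaks with it. Of the 1324 domains with wild-type RNAP, 1292 (97.6%) kept it in Taf5l-KO and 1308 (98.8%) in Taf6l-KO. Strong narrower peaks with RNAP kept it nearly as often, in 97.4% and 98.3%, and all peaks with RNAP in 77.2% and 89.4%. Among the 130 domains without wild-type RNAP, 82 (63.1%) and 81 (62.3%) had an RNAP peak in the knockouts. New RNAP peaks were not particular to the domains. Of the 2676 strong narrower peaks, 2475 and 2537 overlapped knockout RNAP, and 2214 and 2234 of these also had wild-type RNAP. Wild-type RNAP overlapped 2272 of the 2676. Knockout RNAP covered the centre of 58.2% and 57.5% of domains, above the 43.3% of wild type. Unique RNAP tags in the knockouts were 3.07 and 1.4 times those in wild type, whose 5174150 were fewer than those of its input, and their part in these differences was not tested.

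RNAP-ser2 overlapped 80.8% of domains in Taf5l-KO and 89.3% in Taf6l-KO, against 73.8% in wild type, beside 32.7% and 44.8% of all peaks. It was kept at 92.9% and 97.3% of the 1073 domains that had it in wild type. The kept shares were 82% and 93.9% for strong narrower peaks and 71.9% and 84.6% for all peaks. RNAP-ser5 overlapped 77.2% of domains in Taf5l-KO and 55.6% in Taf6l-KO, on either side of the 59.2% of wild type, beside 26% and 24.5% of all peaks. The Taf6l-KO RNAP-ser5 library had 1702363 unique tags, 0.44 times the wild-type number, and 92.6% of its tags were duplicates. At this depth a lower share in Taf6l-KO cannot be told apart from a shallower library. The Taf5l-KO RNAP-ser5 library had 2.27 times the wild-type unique tags. The RNAP-ser2 libraries of Taf5l-KO and Taf6l-KO had 0.856 and 0.61 times. The part of depth in the higher shares was not tested. The Taf5l-KO difference in RNAP-ser2 changed sign at a stricter q, as given below.

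There were 130 domains without an RNAP peak in wild type. Their median width was 3540 bp and their median fold enrichment 7.17, against 3686 bp and 9.66 for those with RNAP. Of these 130, 11 (8.46%) carried H3K9ac, none carried Myc, which allows up to 2.8%, and 6 carried Oct4. The widest, at chr9:21651231-21657670, measured 6440 bp in wild type and 1901 and 2188 bp in the knockouts, and RNAP peaks were listed there in both knockouts. The next, at chr11:98820661-98827032, measured 6372, 5252 and 5225 bp.

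A large part of the Myc list lay in the domains. In wild type 181 domains (12.4%, 10.8 to 14.3) overlapped a Myc peak, against 1.31% of all peaks and 2.69% (2.11 to 3.38) of the strong narrower peaks. The domains held 210 of the 531 wild-type Myc peaks (39.5%). Per Mb of H3K4me3 sequence there were 35.2 Myc peaks in domains, 10.8 in the narrower peaks of at least 1000 bp and 15.4 in the strong narrower peaks. For Myc the domains were thus highest per length as well as per region. Per Mb, wild-type H3K9ac (162.2 in domains, 298.1 in strong narrower peaks), RNAP (289 and 475.9) and RNAP-ser2 (257.3 and 295) were lower in the domains. RNAP-ser5 was higher (203.4 and 181.5). All 181 domains with Myc also had RNAP and 170 had H3K9ac. The highest Myc fold enrichment, 41.6, was at chr19:8785148-8789784, a domain of 4637 bp, followed by 34.5 at chr4:46463413-46467065 (3653 bp) and 27.2 at chr4:140255284-140262289 (7006 bp).

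Hardly any Myc peak was listed at the domains in the knockouts. There were 13 domains with one in Taf5l-KO (0.894%; all peaks 0.0612%) and 6 in Taf6l-KO (0.413%; all peaks 0.0258%). All 13 and all 6 also had one in wild type, and 3 had one in both knockouts. The lists themselves held 32 and 22 peaks on chromosomes 1 to 19. Unique tags numbered 1.2 and 0.909 times those in wild type before scaling, and those of the inputs 0.804 and 0.762 times. Modelled fragment sizes of these libraries were 51 and 50 bp, against 95 bp in wild type and a tag size of 50 bp. The part of depth and fragment size in the short lists was not tested. The median ratio of knockout to wild-type width was 0.877 in Taf5l-KO and 0.795 in Taf6l-KO at the domains with wild-type Myc. At those without it was 0.868 and 0.777. The domains with Myc were wider in wild type, with a median of 3875 bp against 3628 bp. A link between Myc and width was not tested.

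Oct4 was found at fewer domains, and more evenly over the genotypes. It overlapped 75 domains in wild type (5.16%, 4.08 to 6.42; all peaks 1.03%), 66 in Taf5l-KO (4.54%; 0.774%) and 47 in Taf6l-KO (3.23%; 0.609%). At the strong narrower peaks the wild-type share was 0.785% (0.486 to 1.2). There were 13.6 wild-type Oct4 peaks per Mb in domains, 8.87 in all narrower peaks and 4.52 in the strong narrower peaks. Of the 75 domains, 33 (44%) kept an Oct4 peak in Taf5l-KO and 30 (40%) in Taf6l-KO, and 23 domains had one in all 3 genotypes. Among all wild-type H3K4me3 peaks with Oct4, 40.5% and 36.8% kept it, close to the domains. Oct4-bearing domains were wider than the others and had a lower fold enrichment. Their medians were 4267 bp and 7.96, against 3654 bp and 9.54. Domains hold a small part of the Oct4 list, 3.24% of 2502 peaks.

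The strongest Oct4 peak in a domain lay at chr2:51927892-51931053, with fold enrichments of 23.1, 42.5 and 41.4 in wild type, the Taf5l-KO and the Taf6l-KO. Its H3K4me3 peak was wider in both knockouts, at 4393 and 4123 bp against 3162 bp. The next, at chr19:4805909-4812679 lies just beyond chr19:4801511-4805254, named above for its low width ratio. It had Oct4 fold enrichments of 18.3, 27.4 and 12.8 and H3K4me3 widths of 6771, 7135 and 4310 bp. At chr5:120130173-120134797 Oct4 was listed in wild type (16.6) and in neither knockout, and the H3K4me3 widths were 4625, 1332 and 3930 bp.

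The tagged SAGA subunits were found at a minority of domains. TAF6L-FB regions, with both lines joined, overlapped 183 domains (12.6%, 10.9 to 14.4), against 2.99% of all peaks and 6.32% of the strong narrower peaks. Line 1 alone gave 9.77% (all peaks 2.38%) and line 2 alone 3.71% (0.835%), and 13 domains had a region in both lines. Per Mb there were 32 TAF6L-FB regions in domains and 34.9 in the strong narrower peaks. The lines differed in direction, at 24.5 and 32.2 for line 1 and 9.38 and 4.11 for line 2. TAF5L-FB overlapped 20 domains (1.38%, 0.842 to 2.12; all peaks 0.171%), all from line 1, whose own share was 1.38% against 0.171%. Line 2 overlapped 0% of the domains and 0% of all peaks, as did the BirA control, which allows up to 0.253% of the domains. The BirA list was called with a fragment size of 49 bp and the tagged lists with 300 bp, so it is not a background measured in the same way. Of the 20, 9 also had TAF6L-FB.

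Domains were ordered by their TAF6L-FB fold enrichment, averaged over the lines that listed a region there. The first were 6.1 at chr7:20353770-20357039, 6.05 at chr1:72870267-72874487 and 6.05 at chr14:65205909-65211176, all from line 2, then 5.99 at chr4:116823074-116829118 from line 1. The fifth, at chr11:86569137-86572310, had 6.45 in line 1, the highest single value of these 5, and 5.25 in line 2, a mean of 5.85. H3K4me3 widths there were 3174, 3333 and 3631 bp in wild type, the Taf5l-KO and the Taf6l-KO, whereas at the chromosome 14 domain they were 5268, 1214 and 1086 bp. Among the TAF5L-FB domains the highest fold enrichment, 4.77, was at chr5:113750450-113753613 (3164, 2177 and 2266 bp). It was followed by 4.6 at chr5:123584942-123595145, which had TAF6L-FB in both lines and measured 10204, 2928 and 2892 bp.

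Width in the knockouts was also compared between domains with and without each wild-type mark or protein, with no test. The median ratio at domains with TAF6L-FB was 0.88 in Taf5l-KO and 0.799 in Taf6l-KO, and 0.866 and 0.776 at those without. At the 20 domains with TAF5L-FB it was 0.898 and 0.742, and 0.871 and 0.779 at the others. For H3K9ac the values were 0.877 and 0.79 with the mark and 0.851 and 0.752 without it. For RNAP they were 0.872 and 0.783 against 0.833 and 0.737. For Oct4 they were 0.839 and 0.819 against 0.873 and 0.777.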

How the data were processed

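Values come from 26 peak lists, 1 per immunoprecipitated library (7 targets in 3 genotypes, 4 TAF5L-FB or TAF6L-FB libraries and BirA), each called on its own. The submitters' processing notes name the build mm9 and the tools Bowtie2 2.3.2 and deepTools 2.5.3, with no roles. Per the file headers, MACS2 2.1.1.20160309 made the lists with an input as control, a q cutoff of 0.05, 1 tag per position and a modelled fragment size (300 bp set for the TAF lists, but not for BirA). H3K4me3, H3K9ac and the polymerase lists used broad linking (second cutoff 0.1), which sets how far neighbouring stretches are joined and so the width of a domain, per the file headers. The deposited lists give, per peak, the pileup (a signal that depends on depth), the fold enrichment (a ratio to local background), and −log10 p and −log10 q. These authors' values were used to describe, rank or filter peaks within a list. The larger of each ChIP and input pair was scaled down, per the file headers.

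From these the widths, overlaps of at least 1 bp, covered bases, edges and positions were computed with Python 3.11.15, numpy 2.4.6, pandas 2.3.3 and scipy 1.17.1, on chromosomes 1 to 19. Overlap and width steps were tested on simulated lists. Positions 5% and 50% of the width from the edges were read at grid points. The 2 lines of each tagged protein were merged into 1 set of regions, without any that touched a BirA peak. An edge, read from the widest knockout peak, counted as moved at 200 bp. Unique tags ran from 1702363 to 22968606 in the 21 libraries of the 7 targets and from 18292747 to 27775010 in the 5 pull-downs.

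The domains, lists and reference sets were chosen with earlier results of these data known. Domains named individually are the 10 widest, those nearest the width limit, those with the lowest and highest mean width ratio, those without a knockout peak, those with the highest TAF, Oct4 or Myc fold enrichment, the widest without wild-type RNAP and the widest with H3K9ac in all genotypes. The text gives part of these. The gene table used here is of another build, GRCm38, so no domain was assigned to a gene, no sequence is printed and the gene lists were not used. Alternatives were other width limits, overlap rules, references, TAF lines and width measures.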

Additional observations from a re-analysis of the deposited data

Results flagged for a closer look

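The share of domains overlapped by RNAP-ser5 differed from wild type in opposite directions in the 2 knockouts, 18 percentage points higher in Taf5l-KO and −3.58 points in Taf6l-KO. Each value rests on 1 library, and the difference between the knockouts was not tested. The Taf6l-KO library held 1702363 unique tags and the Taf5l-KO library 8807133, and 92.6% and 77.5% of their tags were duplicates. With a −log10 q of at least 5 in the polymerase lists the Taf6l-KO difference was 1.1 points. Groups here hold 1 or 2 libraries, so no library could be tested as standing apart from its group.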

How the results depend on the processing

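The number of domains was 4449, 535 and 233 at limits of 2000, 4000 and 5000 bp. For these limits in turn, the share of domains overlapped in wild type was 47.7%, 62.8% and 67.8% for H3K9ac and 84.4%, 93.1% and 95.7% for RNAP. It was 56.8% and 88.8% with peaks less than 1000 bp apart joined, 5.98% and 26% where 50% of the domain had to be covered, 42.8% and 67.5% in the central 1000 bp, and 17.7% and 60% with a −log10 q of at least 5 in the other list. H3K9ac in Taf5l-KO minus wild type was −45.7, −59.3 and −62.2 points at the 3 limits, −53.9 joined, −5.98 at 50% coverage, −41.4 at the centre and −17.3 at the stricter q. In Taf6l-KO it was −34.2, −41.5, −43.3, −5.91 (50% coverage), −30.5 (centre) and −11.1 (q). RNAP minus wild type was 6.41 and 1.72 points at 2000 and 5000 bp, 17.7 at 50% coverage, 11.8 at the centre and 16.9 at the stricter q in Taf5l-KO, and 7.93, 2.15, 14.2, 12.2 and 21 in Taf6l-KO. Against narrower peaks of at least 1000 bp, strong narrower peaks, the centres of those, and the centres with strength matched, the domains' H3K9ac share differed by 37.5, 6.22, −9.66 and 27.1 points and their RNAP share by 24.8, 6.16, −14.6 and 5.02 points. The last 2 references were chosen after seeing the data. Other differences that changed sign were RNAP-ser5 in Taf6l-KO (1.1 points at the stricter q), RNAP-ser2 in Taf5l-KO (−3.58 at the stricter q, −1.29 at 5000 bp) and Oct4 in Taf5l-KO (0.429 at 5000 bp). Regions found in both lines overlapped 0.757% of domains for TAF6L-FB and 0% for TAF5L-FB. Leaving out each line gave 3.71% to 9.77% for TAF6L-FB and 0% to 1.38% for TAF5L-FB. The median width ratio in Taf5l-KO was 0.919, 0.805 and 0.728 at the 3 limits, 0.908 by the span of all knockout peaks and 0.998 for domains chosen in the knockout. In Taf6l-KO it was 0.839, 0.688, 0.61, 0.823 and 0.933, and 0.743 with peaks joined. The cause of these shifts was not tested, except that a higher limit or stricter q leaves fewer regions by construction. No paired analysis was possible because the labels carry no replicate numbers shared by the genotypes, with 1 library per antibody and genotype. Peak lists hold no signal below the threshold, so a domain outside a list is not shown to lack the target.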

Other observations

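Chromosome X was set apart from the counts above. It held 21 wild-type H3K4me3 peaks of at least 3000 bp among 1330 peaks (1.58%), and 15 of 1376 in Taf5l-KO and 15 of 1355 in Taf6l-KO. All 21 had RNAP in each of the 3 genotypes. H3K9ac overlapped 14 of them in wild type, 0 in Taf5l-KO and 3 in Taf6l-KO, and Myc overlapped 3, 1 and 1.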
